A study of Homo sapiens with 9 samples.

Results

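GFRA1, the cell surface receptor for glial cell line-derived neurotrophic factor (GDNF), was followed across all 9 RNA-seq libraries of the series together with 5 partners: the related receptors GFRA2 and GFRA3, the signalling receptor RET, the ligand GDNF and the alternative co-receptor NCAM1. These 6 genes were found by symbol among the 58735 genes counted. GFRA1 was chosen by its depth-scaled level, which was lower than in WT CDK9 cells in both other groups, so its values against WT CDK9 are given as a description, with no test. The partners were listed by their role beside GFRA1, with earlier results of these data known.

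RNA came from SKOV3 cells, a human epithelial ovarian cancer line, with 3 libraries in each of 3 groups. The groups were cells with WT CDK9 in basal culture, the WT CDK9 cells after 24 h of an inhibitor of the receptor tyrosine kinase ALK, and cells with Tyr19Phe CDK9, in which a tyrosine is replaced by phenylalanine, also in basal culture. The study describes stable SKOV3 lines in which CDK9, the kinase that releases paused RNA polymerase II, was depleted and then re-expressed as WT or mutant, while the labels say only which CDK9 the cells express. The mutation and the separate derivation of its line cannot be told apart. The number of clones, the inhibitor and its dose for these libraries are not given in the sources used here, nor is it stated that the 3 libraries of a group were separate cultures, so p-values measure the spread between these libraries, which may be technical.

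GDNF binds GFRA1, which is held on the outer face of the membrane by a lipid anchor and has no kinase of its own. The ligand and GFRA1 together bring RET molecules into a complex, RET phosphorylates itself, and adaptors pass the signal to the RAS-MAPK and PI3K-AKT routes. The system is best known from kidney branching, the enteric nervous system and spermatogonial stem cells, and GFRA1 can also act through NCAM1 and the kinases FYN and FAK without RET.

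GFRA1 (ENSG00000151892) lies on the minus strand of chromosome 10 at 116056925 to 116273467 (hg38), a span of 216.54 kb with 11 exons in its canonical GENCODE transcript. RET (ENSG00000165731) lies on the plus strand of the same chromosome at 43077027 to 43130351, a span of 53.3 kb with 20 exons. The RefSeq promoter table (GRCh38.p14) held 4 starts for GFRA1 and 2 for RET. The stretches before the starts of these receptors are shown without any base of a GENCODE exon. For GFRA1 start 3 the stretch begins at start 2, so it also lies downstream of that start. The first GFRA1 start lies outside the gene span of the deposited table and its window is covered by exons, so it is not shown. Sequences read 5′ to 3′ on the strand of the gene, and capitals mark motif matches on either strand, where neighbouring matches may share a base. The motif searched as the GC box was GGGCGG, which reads CCGCCC when it lies on the opposite strand. The TATA box was searched with the letters TATAAA, and the last motif, bound by the factor NF-Y, with the letters CCAAT.
GFRA1 start 2, chr10:116272476-116272560, minus strand: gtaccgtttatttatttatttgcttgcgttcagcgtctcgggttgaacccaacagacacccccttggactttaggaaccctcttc
GFRA1 start 3, chr10:116272283-116272475, minus strand: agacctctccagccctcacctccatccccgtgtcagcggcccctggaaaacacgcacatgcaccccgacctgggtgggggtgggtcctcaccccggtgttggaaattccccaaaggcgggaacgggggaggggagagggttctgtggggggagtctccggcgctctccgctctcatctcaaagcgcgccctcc
GFRA1 start 4, chr10:116255796-116256045, minus strand: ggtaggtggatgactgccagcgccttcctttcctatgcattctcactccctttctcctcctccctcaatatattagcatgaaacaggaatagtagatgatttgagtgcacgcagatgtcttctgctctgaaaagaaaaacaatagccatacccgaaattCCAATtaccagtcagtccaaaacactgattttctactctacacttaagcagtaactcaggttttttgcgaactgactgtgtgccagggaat
RET start 1, chr10:43076819-43077063, plus strand: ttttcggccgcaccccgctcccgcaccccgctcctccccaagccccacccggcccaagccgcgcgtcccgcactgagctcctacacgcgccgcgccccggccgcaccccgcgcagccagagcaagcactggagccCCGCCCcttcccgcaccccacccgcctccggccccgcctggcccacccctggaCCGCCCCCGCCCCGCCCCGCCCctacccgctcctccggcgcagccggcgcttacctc
RET start 2, chr10:43104515-43104752, plus strand: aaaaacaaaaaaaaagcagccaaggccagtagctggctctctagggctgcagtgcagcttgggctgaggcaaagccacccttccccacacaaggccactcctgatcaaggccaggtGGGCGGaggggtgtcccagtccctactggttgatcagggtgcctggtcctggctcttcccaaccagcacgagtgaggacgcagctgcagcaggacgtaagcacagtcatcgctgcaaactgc
Over the whole window of 250 bases, the first RET start had 33 CpG dinucleotides and 79.6% G and C, and the second 6 CpG and 58.0%. GFRA1 had 23 CpG and 64.4% G and C before start 2, 17 CpG and 66.8% before start 3, and 4 CpG and 43.2% before start 4. Motifs were counted only in the stretches shown, of 245 and 238 bases for RET and 85, 193 and 250 bases for GFRA1. In these, RET had 5 GC boxes before start 1 and 1 before start 2, and GFRA1 had none. The median over all 34943 windows of the table was 11 CpG. Of these windows, each searched over its whole length, 42.55% held a GC box, 10.75% a TATA box and 32.04% the NF-Y motif. Shares of whole windows cannot be set directly against the shorter stretches. A match is a description of the letters, and the counts do not say which start was used.

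Depth differed between groups: libraries held 18939449 to 19731228 counts in WT CDK9 cells, 18169050 to 20974903 with the ALK inhibitor and 26485891 to 29320184 in Tyr19Phe CDK9 cells. Levels are therefore given as CPM, counts scaled to 1000000 per library after TMM, a scaling that sets aside the genes that differ most, with factors of 0.986 to 1.01. A floor of 3 counts stood at 0.102 to 0.165 CPM. The 6 epithelial markers of the line (KRT8, KRT18, KRT19, EPCAM, ERBB2 and PAX8) were measured in every library. They differed between groups: KRT8 was at 1307 CPM with WT CDK9 and 1695 with Tyr19Phe CDK9, KRT19 at 246 and 104, and EPCAM at 21.2 and 12, while ERBB2 was at 1800 with WT CDK9 and 2625 with the inhibitor, and the part of these differences in the results was not tested. The neural crest and neuroendocrine markers summed to 0.779 to 2.38 CPM, with at most 6 counts of the neural crest factor SOX10 in a library. Leukocyte markers summed to at most 0.465 CPM, and the fibroblast markers DCN and LUM had at most 4 counts in a library, whereas COL1A1, also listed as a fibroblast marker, was at 104 CPM with WT CDK9, 133 with the inhibitor and 37.9 with Tyr19Phe CDK9. In bulk RNA, fewer cells that express a gene and less RNA per cell cannot be told apart.

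GFRA1 was by far the most abundant of the 6. It had 4699, 4369 and 4336 counts in the WT CDK9 libraries, 3076, 2696 and 2903 with the ALK inhibitor, and 5086, 4375 and 4122 in Tyr19Phe CDK9 cells. As CPM, these were 241, 231 and 232 in WT CDK9 cells, 146, 148 and 150.0 with the inhibitor, and 172, 156 and 156 in Tyr19Phe CDK9 cells. Raw counts of WT and Tyr19Phe CDK9 libraries overlapped, whereas after scaling for depth every WT CDK9 library was above every other library. These scaled levels chose the gene, so their separation is a description. For the genes below too, separation of libraries is given without its share over all genes and is a description.

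The GFRA1 mean fell from 234 ± 5.77 CPM (SD, n = 3) in WT CDK9 cells to 148 ± 2.00 (SD, n = 3) with the inhibitor and 161 ± 9.60 (SD, n = 3) with Tyr19Phe CDK9. These are 0.631-fold and 0.687-fold of the WT CDK9 level, or log2 fold changes of -0.66 (SE 0.05) and -0.54 (SE 0.05). Both comparisons chose the gene and share the WT CDK9 libraries, so they carry no test and are not independent of each other. Per kilobase of the listed 9678-base gene length, the means were 24.2, 15.3 and 16.7 CPM per kb in the same order.

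The direct comparison of Tyr19Phe CDK9 with the ALK inhibitor was not used to choose GFRA1. The 3 Tyr19Phe CDK9 libraries all lay above the 3 inhibitor libraries, at a fold of 1.09 (95% interval 1.02 to 1.17, log2 difference 0.12, SE 0.05). This did not pass an adjusted p of 0.05 in edgeR's quasi-likelihood test (adjusted p = 0.0709), nor under any alternative run, where the adjusted p ranged from 0.0538 to 0.388, the highest without replicate 1 of Tyr19Phe CDK9 (log2 difference 0.07). In the order of levels, WT CDK9 was highest, and the difference between the remaining groups did not pass the test.

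**Figure D1:**
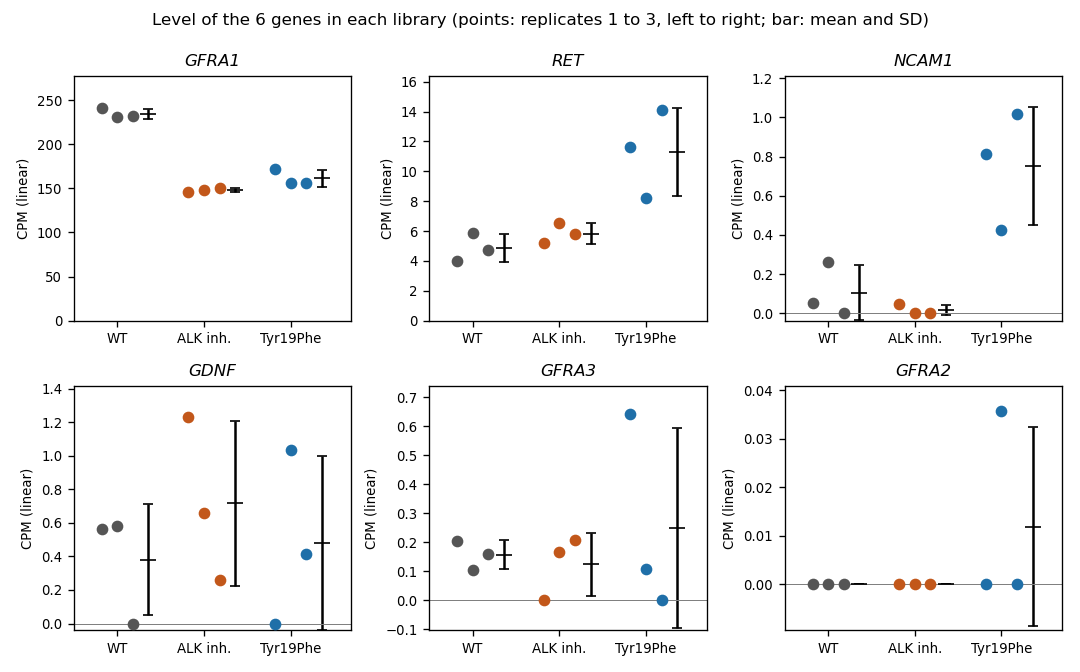
Levels of the 6 genes in each library, as CPM on linear axes with a separate scale for each gene; points are replicates 1 to 3, the horizontal tick the mean and the vertical bar the SD (n = 3). GFRA1 was at 146 to 172 CPM in both other groups against 231 to 241 with WT CDK9, RET and NCAM1 were highest in all 3 Tyr19Phe CDK9 libraries, and GDNF, GFRA3 and GFRA2 overlapped between groups.

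RET, the receptor tyrosine kinase through which GFRA1 signals, was higher with Tyr19Phe CDK9. It had 78, 111 and 89 counts in WT CDK9 cells, 109, 119 and 112 with the ALK inhibitor, and 343, 231 and 373 in Tyr19Phe CDK9 cells. In CPM these were 4.0, 5.86 and 4.76, then 5.17, 6.54 and 5.79, then 11.6, 8.22 and 14.1. All Tyr19Phe CDK9 libraries were above all others, and the WT CDK9 and inhibitor libraries overlapped.

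RET rose from 4.87 ± 0.933 CPM (SD, n = 3) in WT CDK9 cells to 11.3 ± 2.94 (SD, n = 3) with Tyr19Phe CDK9, a fold of 2.32 (95% interval 1.74 to 3.08, log2 1.21, SE 0.20, edgeR adjusted p = 3.33e-05). Against the inhibitor-treated cells (5.83 ± 0.682 CPM, SD, n = 3), the fold was 1.94 (95% interval 1.47 to 2.56, log2 0.96, SE 0.20, edgeR adjusted p = 5.30e-04). The inhibitor against WT CDK9 gave a fold of 1.20 with an interval of 0.888 to 1.61, which did not pass (edgeR adjusted p = 0.650). RET passed in both Tyr19Phe CDK9 comparisons under every alternative run, including each library left out, with adjusted p of at most 0.0118.

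Of the 6 genes, 3 passed the filter on low counts: GFRA1, RET and GDNF. Leaving GFRA1 aside, neither RET nor GDNF was called with the inhibitor, where 2.73% of the 16350 tested genes were called lower and 1.82% higher. RET alone was called with Tyr19Phe CDK9, where 10.4% of tested genes were lower and 7.61% higher than in WT CDK9 cells. In Tyr19Phe CDK9 against the inhibitor, where 11.1% were lower and 9.57% higher, RET was again the only call among the 3 tested genes.

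The balance between the receptors was given by dividing GFRA1 by RET in each library, both as counts per kilobase of gene. The ratio was 43.0, 28.1 and 34.8 in WT CDK9 cells, 20.2, 16.2 and 18.5 with the ALK inhibitor, and 10.6, 13.5 and 7.89 with Tyr19Phe CDK9. The 3 groups did not overlap, with means of 35.3 ± 7.47, 18.3 ± 2.00 and 10.7 ± 2.82 (SD, n = 3 each). The ratio contains the values that chose GFRA1 and is a description. GFRA1 RNA exceeded RET RNA per kilobase in every library.

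**Figure D2:**
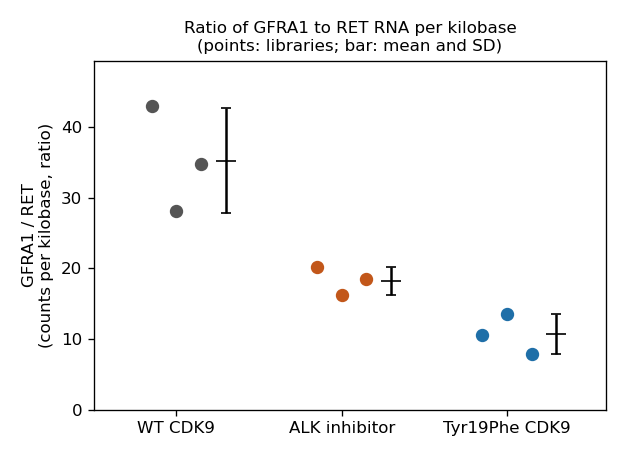
Ratio of GFRA1 to RET RNA in each library, both as counts per kilobase of gene, on a linear axis from 0; points are libraries, and the tick and bar the mean and SD (n = 3). The ratio was 28.1 to 43.0 with WT CDK9, 16.2 to 20.2 with the ALK inhibitor and 7.89 to 13.5 with Tyr19Phe CDK9.

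NCAM1 (ENSG00000149294), the neural cell adhesion molecule that can serve GFRA1 in place of RET, spans 112961247 to 113278436 on the plus strand of chromosome 11. It had 1, 5 and 0 counts in the WT CDK9 libraries, 1, 0 and 0 with the inhibitor, and 24, 12 and 27 in Tyr19Phe CDK9 cells. The Tyr19Phe CDK9 libraries, at 0.813, 0.427 and 1.02 CPM, were all above the others, of which the highest had 0.264 CPM. NCAM1 failed the filter.

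The summed NCAM1 counts, scaled for depth, were 7.13 times those of WT CDK9 cells (95% counting interval 3.10 to 20.2, 63 against 6 counts) and 43.9 times those of inhibitor-treated cells (7.60 to 1761, 63 against 1 count). These intervals cover counting error only. An exact two-sided permutation test of the CPM values gave p = 0.1 in each case, the smallest that 3 against 3 libraries allow. Without the filter, edgeR called NCAM1 higher than with the inhibitor (adjusted p = 0.00389) and not against WT CDK9 (adjusted p = 0.120). Tyr19Phe CDK9 libraries also held 14 to 35 counts of the endothelial cadherin CDH5, against at most 1 elsewhere, while PECAM1, the other endothelial marker listed, was at 0 in them, and the part of these in the NCAM1 result was not tested.

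The ligand GDNF (ENSG00000168621, chromosome 5, 37812677 to 37839686, minus strand) was near the limit of detection. It had 11, 11 and 0 counts in WT CDK9 cells, 26, 12 and 5 with the inhibitor, and 0, 29 and 11 in Tyr19Phe CDK9 cells. Libraries at 0 stood in the same group as libraries with 11 or more counts, and all groups overlapped. The fold was 1.87 with the inhibitor (95% interval 0.483 to 7.24, edgeR adjusted p = 0.756) and 1.25 with Tyr19Phe CDK9 (0.323 to 4.85, edgeR adjusted p = 0.877), so changes within these wide intervals could not be detected at this depth. The sign against WT CDK9 turned in Tyr19Phe CDK9 cells without WT CDK9 replicate 3 (log2 -0.25) or without Tyr19Phe CDK9 replicate 2 (log2 -0.89). GDNF overlaps the antisense gene GDNF-AS1, which had 0 to 14 counts per library, and since the strand setting of the counting is not given in the sources used here, the reads of the pair cannot be told apart.

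The receptors for the related ligands were close to absent from the counts. GFRA3 (ENSG00000146013, chromosome 5, 138252379 to 138274671), the receptor for artemin, had 4, 2 and 3 counts in WT CDK9 cells, 0, 3 and 4 with the inhibitor, and 19, 3 and 0 in Tyr19Phe CDK9 cells. All but 1 of these libraries were at 4 counts or fewer, and the groups overlapped (exact two-sided permutation p = 0.9 in each comparison). The mean difference of Tyr19Phe CDK9 from WT CDK9 was 0.0930 CPM with all libraries and -0.104 CPM without Tyr19Phe CDK9 replicate 1. GFRA2 (ENSG00000168546, chromosome 8, 21690403 to 21812357), the receptor for neurturin, had 1 count in all, in Tyr19Phe CDK9 replicate 2, which is under the floor of 3 counts. GFRA4, the receptor for persephin, had at most 4 counts in a library, and GFRAL, the receptor for GDF15, had 0 in every library.

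The other ligands of the family were measured more deeply than GDNF. Neurturin (NRTN) had 176 to 294 counts per library, artemin (ARTN) 209 to 379 and persephin (PSPN) 43 to 112. None of these 3 was called against WT CDK9 in either comparison. NRTN, at 10.4 ± 0.654 CPM with WT CDK9 (SD, n = 3), was 8.0 ± 2.13 with Tyr19Phe CDK9 and 11.3 ± 1.18 with the inhibitor, and the difference between Tyr19Phe CDK9 and the inhibitor was called (log2 -0.50, SE 0.17, edgeR adjusted p = 0.0344). That NRTN call was lost in DESeq2 (adjusted p = 0.0534) and without inhibitor replicate 1 (0.0935), inhibitor replicate 2 (0.116), Tyr19Phe CDK9 replicate 1 (0.148) or Tyr19Phe CDK9 replicate 3 (0.172), each an adjusted p. GDF15 had 0 to 14 counts and was not tested.

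The genomic surroundings of both receptors were compared with them, to see whether their neighbours moved alike. Of the 42 other tested genes within 5 Mb of GFRA1, none was called with the inhibitor, their median log2 fold change was -0.02, and all 42 were above GFRA1. With Tyr19Phe CDK9, 4 (9.52%) were called lower and 3 (7.14%) higher, close to the 10.4% and 7.61% of all tested genes, the median was again -0.02, and 1 was below GFRA1. Because GFRA1 was chosen by its low values in these same comparisons, its rank among its neighbours is a description only. The nearest tested genes on one side were ATRNL1, TRUB1, FAM160B1 and ABLIM1, and on the other HSPA12A, ENO4, SHTN1 and SLC18A2. Of these 8 only FAM160B1 was called against WT CDK9, lower with Tyr19Phe CDK9 (log2 -0.24, edgeR adjusted p = 0.0138), a call lost without WT CDK9 replicate 1 (0.134) or Tyr19Phe CDK9 replicate 3 (0.107). HSPA12A was higher with Tyr19Phe CDK9 than with the inhibitor (log2 0.21, edgeR adjusted p = 0.0405), a call lost without replicate 2 (0.119) or 3 (0.15) of the inhibitor and without replicate 2 (0.0860) or 3 (0.146) of Tyr19Phe CDK9. No gene of the table overlaps the span of GFRA1 or RET.

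Around RET, more genes lay above 0 than below with Tyr19Phe CDK9, and more below than above with the inhibitor. The 58 other tested genes within 5 Mb had a median log2 fold change of 0.24 with Tyr19Phe CDK9, with 16 below 0, against a median over all tested genes of 0.0035. Of these 58, 8 (13.8%) were called higher and none lower, beside 7.61% and 10.4% of all tested genes. With the inhibitor their median was -0.13, with 38 below 0, and 6 (10.3%) were called lower and none higher, beside 2.73% and 1.82% of all tested genes. RET lay above 57 of the 58 with Tyr19Phe CDK9, and above 51 with the inhibitor. In Tyr19Phe CDK9 set directly against the inhibitor, the 58 had a median of 0.28, with 10 below 0. There 17 (29.3%) were called higher and 1 (1.72%) lower, beside 9.57% and 11.1% of all tested genes. RET lay above 49 of the 58 in that comparison. The part of these neighbouring values in the RET result was not tested.

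**Figure D3:**
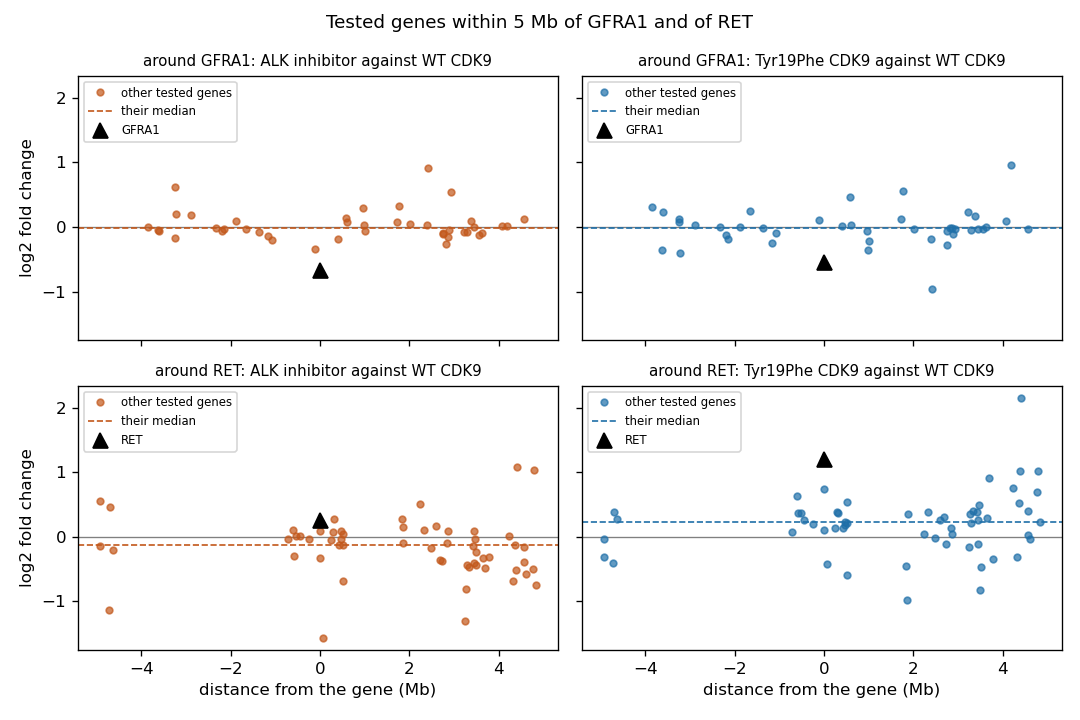
log2 fold change against WT CDK9 of the tested genes within 5 Mb of GFRA1 (top) and RET (bottom), by distance from the gene in Mb; circles are other tested genes, the dashed line their median and the triangle the receptor. GFRA1, chosen by its low values in these comparisons, stands below all 42 neighbours with the inhibitor and below 41 of 42 with Tyr19Phe CDK9. The genes around RET have medians of -0.13 and 0.24.

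The rest of the pathway was read from a list of 71 other genes written by role, of which 56 were tested. With the ALK inhibitor, 2 of the 56 (3.57%) were called lower and 4 (7.14%) higher, with a median log2 fold change of 0.00. With Tyr19Phe CDK9, 9 (16.1%) were lower and 5 (8.93%) higher than in WT CDK9 cells, with a median of -0.06. These shares stand beside the 2.73% and 1.82% of all tested genes with the inhibitor and the 10.4% and 7.61% with Tyr19Phe CDK9. Without WT CDK9 replicate 1, the 4 higher calls with the inhibitor became 2.

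Beside RET and NCAM1, the pathway list held 2 other proteins that bind GDNF or GFRA1. Both were called lower with Tyr19Phe CDK9, where 10.4% of all tested genes were called lower. SDC3, a heparan sulfate proteoglycan that binds GDNF, went from 213 ± 4.02 CPM (SD, n = 3) to 183 ± 9.83 (log2 -0.22, edgeR adjusted p = 7.72e-04), and to 244 ± 1.55 with the inhibitor (log2 0.19, edgeR adjusted p = 0.00745). The inhibitor call was lost without WT CDK9 replicate 1 (adjusted p = 0.0552). SORL1, a sorting receptor that carries GDNF and GFRA1, was lower with Tyr19Phe CDK9 (106 ± 8.81 to 81.5 ± 7.32 CPM, log2 -0.38, edgeR adjusted p = 1.03e-04) and not called with the inhibitor (log2 -0.05).

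Of the 28 tested adaptors and direct effectors of RET, 4 (14.3%) were lower and 5 (17.9%) higher with Tyr19Phe CDK9. These shares stand beside 10.4% lower and 7.61% higher of all tested genes. RAP1GAP, which switches off the small GTPase RAP1 and binds RET, had the largest fall of these, from 15.8 ± 1.53 to 5.97 ± 1.64 CPM (SD, n = 3, log2 -1.40, edgeR adjusted p = 2.01e-07). GRB10, an adaptor that binds phosphorylated RET, rose from 11.4 ± 1.60 to 22.3 ± 0.705 CPM (log2 0.97, edgeR adjusted p = 1.66e-06), while the related GRB7, which ranked ninth of the lower genes and was named after its values were seen, fell by 0.75 on the log2 scale (edgeR adjusted p = 0.0115), a call lost without WT CDK9 replicate 2 (0.0951) or Tyr19Phe CDK9 replicate 3 (0.0653). The scaffold SHANK3 rose (log2 0.35, edgeR adjusted p = 3.76e-05). Of the ubiquitin ligases that take receptor tyrosine kinases off the membrane, CBL fell (log2 -0.24, edgeR adjusted p = 0.00175) and CBLB rose (log2 0.67, edgeR adjusted p = 3.82e-04). Other calls that 1 library could undo were those of the phosphatase PTPN11 (log2 -0.15, adjusted p = 0.0109, and 0.0634 without WT CDK9 replicate 2), STAT3 (log2 0.14, adjusted p = 0.0162, 0.0956 without WT CDK9 replicate 2 and 0.0575 without Tyr19Phe CDK9 replicate 1) and IRS1 (log2 0.27, adjusted p = 0.0241, 0.0704 and 0.0998 without WT CDK9 replicates 1 and 2, and 0.118 without Tyr19Phe CDK9 replicate 1).

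In the same group the inhibitor gave 2 lower and 2 higher calls (7.14% each), beside 2.73% and 1.82% of all tested genes. The insulin receptor substrates, docking proteins that RET can also use, both fell: IRS2 from 81.8 ± 5.92 to 57.6 ± 2.81 CPM (SD, n = 3, log2 -0.51, edgeR adjusted p = 4.24e-06) and IRS1 from 38.4 ± 2.05 to 29.1 ± 1.23 (log2 -0.40, edgeR adjusted p = 0.00369). CBLB rose from 10.8 ± 0.445 to 17.4 ± 1.06 CPM (log2 0.68, edgeR adjusted p = 0.00120), close to its 17.2 ± 2.29 CPM with Tyr19Phe CDK9. PDLIM7, a scaffold that binds RET, was higher by log2 0.14 (edgeR adjusted p = 0.0310), a call lost without WT CDK9 replicate 1 (0.116) or 3 (0.161) and without inhibitor replicate 2 (0.157) or 3 (0.0883).

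**Figure D4:**
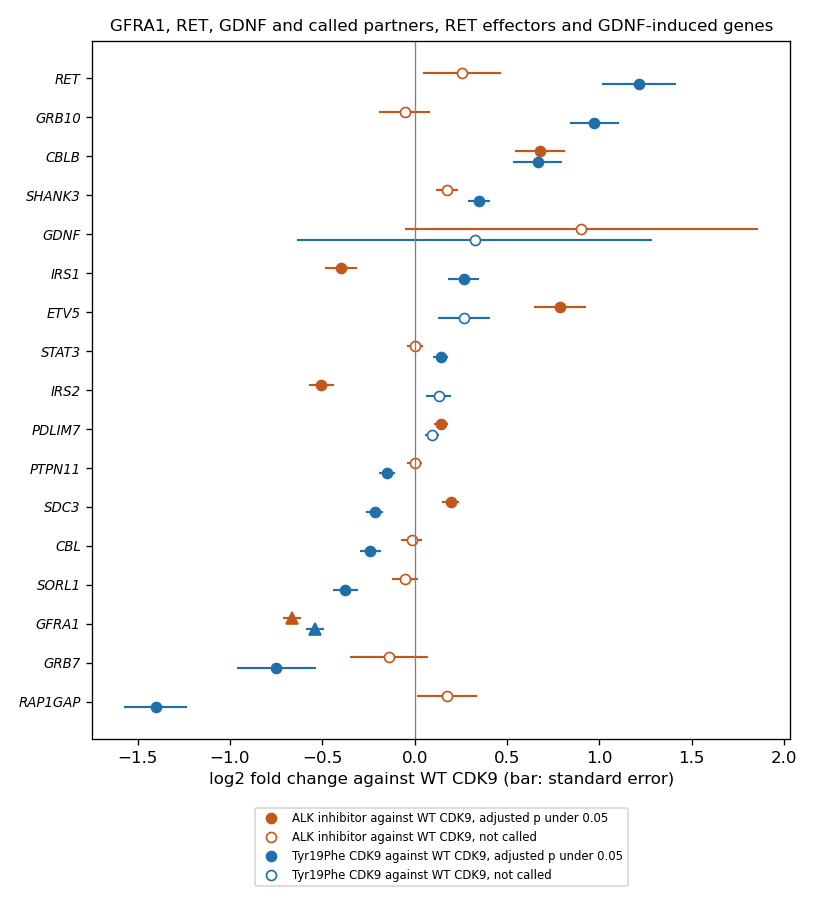
log2 fold change against WT CDK9 of GFRA1, RET, GDNF and of the binding partners, RET effectors and GDNF-induced genes called in either comparison, with the ALK inhibitor in orange and Tyr19Phe CDK9 in blue; bars are standard errors, filled circles passed an adjusted p of 0.05 in edgeR, and the triangles of GFRA1 carry no test. RET (log2 1.21) and GRB10 (0.97) are highest with Tyr19Phe CDK9, RAP1GAP (-1.40) is lowest, and CBLB is higher in both.

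Of the 11 kinases and small GTPases shared by many receptors, all tested, 3 (27.3%) fell with Tyr19Phe CDK9, beside 10.4% of all tested genes. Among them was AKT1 (log2 -0.19, edgeR adjusted p = 0.00181), and none of the 11 was called with the inhibitor. FYN and PTK2, the kinases that act below NCAM1, were called in neither comparison. Of 9 genes that GDNF induces in the developing kidney, 6 were tested. ETV5, a transcription factor of the ureteric bud, rose with the inhibitor from 16.4 ± 0.964 to 28.2 ± 5.64 CPM (SD, n = 3, log2 0.79, edgeR adjusted p = 2.93e-04). It was the only call of the 6 there, beside 1.82% of all tested genes called higher. None of the 6 was called in Tyr19Phe CDK9 against WT CDK9. Of 9 transcription factors that act above GDNF, RET or GFRA1 in development, 4 were tested, among them PAX8, HOXB5 and ESR1, and none was called, while the other 5 were not tested.

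Set directly against the inhibitor, Tyr19Phe CDK9 gave 15 lower (26.8%) and 5 higher (8.93%) calls among the 56 list genes, beside 11.1% and 9.57% of all tested genes, and a median log2 difference of -0.05. The 5 higher calls became 3 without inhibitor replicate 3. RAP1GAP (log2 -1.58, edgeR adjusted p = 1.56e-08) and SDC3 (log2 -0.41, edgeR adjusted p = 2.82e-08) led the lower calls, and IRS2 (log2 0.64, edgeR adjusted p = 1.25e-08), IRS1 (log2 0.66, edgeR adjusted p = 4.47e-07) and GRB10 (log2 1.03, edgeR adjusted p = 5.71e-07) the higher.

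Of the 6 tested kidney genes induced by GDNF, 3 (50%) were lower in that direct comparison, beside 11.1% of all tested genes. They were SPRY1, ETV5 and ETV4, of which SPRY1 and ETV4 were named after their values were seen. SPRY1, a feedback inhibitor of receptor tyrosine kinase signalling, was at 0.905 ± 0.306 CPM against 2.94 ± 0.866 (SD, n = 3, log2 -1.69, edgeR adjusted p = 0.00409). ETV5 was at 19.7 ± 4.02 against 28.2 ± 5.64 CPM (log2 -0.52, edgeR adjusted p = 0.00500), a call lost without replicate 1 of the inhibitor (adjusted p = 0.0772) or of Tyr19Phe CDK9 (0.0598). ETV4 (log2 -0.68, edgeR adjusted p = 0.0302) was not called without inhibitor replicate 1 (0.201), Tyr19Phe CDK9 replicate 1 (0.0876) or Tyr19Phe CDK9 replicate 2 (0.114).

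The genes whose pattern was most like that of GFRA1 were sought among 14040 tested genes that averaged 1 CPM or more, by Pearson's r of log2 CPM over the 9 libraries. They were IGFBP3 (r = 0.989), which binds insulin-like growth factors, the giant scaffold AHNAK (0.982), the dystrophin relative UTRN (0.981), the actin regulator ENAH (0.981) and the membrane protein CRIM1 (0.979). The 9 points fall into the same 3 groups for every gene, so these values describe a shared order of group levels. IGFBP3 was at 2045 ± 11.3 CPM with WT CDK9, 1452 ± 54.2 with the inhibitor and 1566 ± 53.4 with Tyr19Phe CDK9 (SD, n = 3), and CRIM1 at 607 ± 5.91, 470.4 ± 13.5 and 480.1 ± 10.8. Their fold changes against WT CDK9 were smaller than those of GFRA1, at log2 -0.49 and -0.39 for IGFBP3 and -0.37 and -0.34 for CRIM1. Since GFRA1 was chosen by its fall and these genes by their likeness to it, the difference in size is a description.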

How the data were processed

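The authors extracted total RNA from SKOV3 cells, had it sequenced by a company and mapped it to hg38. The deposited table holds whole-number counts of reads per gene and library, with no normalization, beside each gene's position and length. The submitters' processing notes name CASAVA, HISAT2 2.0.5 and featureCounts 1.5.0-p3, while the annotation release and strand setting are not given in the sources used here. Groups and replicate numbers came from the labels. The 6 members and the list of 71 pathway genes were chosen with earlier results of these data known.

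The analysis used edgeR 4.0.16 (with limma 3.58.1) in R 4.3.3, DESeq2 1.42.0 for comparison, and Python 3.11.15 for sequences and figures. Genes passed filterByExpr (minimum count 10, minimum total 15), which left 16350 genes. After TMM scaling, the quasi-likelihood fit took all 9 libraries with a mean for each group and 6 residual degrees of freedom. Benjamini-Hochberg adjustment ran over the whole set of tested genes, and an adjusted p under 0.05 was called. The code was tested on simulated counts. Genes that failed the filter were given as counts, with exact binomial intervals of their depth-scaled ratios and exact permutation tests. A read-count floor of 3 was used, and the binomial intervals and floors cover counting error only. The intervals of edgeR fold changes use its standard error, which also takes in the spread between libraries. Total counts were 18169050 to 29320184 per library.

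Named were every member, each ligand and receptor of the list, list genes called against WT CDK9 (up to 8 per comparison and direction), the nearest 4 tested genes on each side of GFRA1 within 2 Mb, the 5 genes most correlated with GFRA1 (log2 CPM with prior count 2), and genes overlapping a member. A few genes within that rule are left out of the text. The alternatives were DESeq2's size factors, library size alone, DESeq2, no filter beyond 1 count, a replicate block, the compared groups only, and each library left out. Of the 58735 table genes, 58207 were found in GENCODE release 44, of which 58169 lay on the same chromosome within 1 Mb. No duplicated library was seen: replicates of a group differed by a chi-square of 4.23 to 8.71 per gene.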

Additional observations from a re-analysis of the deposited data

How the results depend on the processing

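Of 798 values recomputed under another setting, 746 kept their direction and side of the threshold or, where there was no test, moved by less than the SD between replicates (for counts, by at most 1.5 times), 43 lost a call, 3 counts moved by over 1.5 times and 6 turned sign. The count of all genes called lower with the ALK inhibitor was 447 with all libraries and 293 to 363 with 1 library left out, the lowest without WT CDK9 replicate 1, with fewer libraries in the fit. With 1 library left out, the log2 change of GDNF with Tyr19Phe CDK9 ranged from -0.89 to 0.91 against WT CDK9 and from -1.80 to 0.07 against the inhibitor. Single values that turned were -0.25 and -0.89 against WT CDK9 (without WT CDK9 replicate 3 and Tyr19Phe CDK9 replicate 2), and 0.0725 and 0.0092 against the inhibitor (without inhibitor replicate 1 and Tyr19Phe CDK9 replicate 1). The mean difference of GFRA3 ranged from -0.104 to 0.218 CPM and from -0.0704 to 0.251 CPM in the same comparisons, turning without Tyr19Phe CDK9 replicate 1. GDNF had at most 29 counts and GFRA3 at most 19 in a library, and the cause was not tested further. DESeq2 gave no adjusted p for NCAM1.

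The log2 fold change of GFRA1 ranged over these alternatives from -0.67 to -0.64 for the inhibitor, and from -0.59 to -0.51 for Tyr19Phe CDK9. Same-numbered libraries of different groups did not deviate together over all tested genes (correlations -0.0116 to 0.0260). The labels give only a number, and these correlations cannot show whether such libraries shared a batch that touched few genes. With a replicate block, RET had a log2 fold change of 1.21 with Tyr19Phe CDK9, GFRA1 a log2 difference of 0.12 between the other groups (adjusted p = 0.0625), and 21 pathway list genes were called there in place of 20. The block ended no call among the genes recomputed.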
